A study of Danio rerio with 12 samples.

Results

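The genes described here are the TET dioxygenases tet1, tet2 and tet3 and the methyl-CpG readers mbd2, mbd3a, mbd3b and zbtb33. They were taken from a zebrafish count table by gene symbol, in any letter case and with a missing paralog letter allowed. All 7 were found among the 32520 genes of the table. The row used for mbd3a (ENSDARG00000061774) carries the symbol MBD3 without a paralog letter and is the only row of that name.

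In wild-type embryos tet3 was by far the most counted member, and its level fell 2.15-fold with 5AzadC. In H2A.Z-mCherry embryos it fell 1.80-fold. The level of tet2 fell 1.46-fold with the drug in wild type, a call that several other settings lost. The remaining members did not pass the test in either genotype or had too few counts to be tested, and zbtb33 had no count in any library. No member differed between the genotypes past the threshold.

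TET enzymes oxidise 5-methylcytosine to 5-hydroxymethylcytosine and further products, which base excision repair or DNA replication can replace with unmodified cytosine. Methyl-CpG readers bind methylated DNA or belong to complexes that do. Mbd2 binds methylated CpG sites, and Mbd3 of mammals has lost most of that preference, but both are alternative subunits of the NuRD complex, which joins nucleosome remodelling to histone deacetylation. Zbtb33 (Kaiso) reads methylated CpG pairs through zinc fingers. In vertebrate embryos, TET enzymes are known for the demethylation of enhancers during organ formation, and zebrafish tet2 and tet3 are known to act redundantly in the formation of blood stem cells.

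Total RNA had been sequenced from whole embryos of 12 hours post fertilisation, in 4 groups of 3 libraries. Wild-type and H2A.Z-mCherry embryos each received 0.1% DMSO or 100 µM 5AzadC. 5AzadC is a deoxycytidine analogue that traps DNA methyltransferases on DNA, and DMSO, a solvent for it, was the control. The DMSO share in the wells with 5AzadC is not given. Wild-type adults were of the AB/Tuebingen stock. H2A.Z-mCherry, whose genotype the labels give as H2A.Z overexpression, carries a histone variant fused to a red fluorescent protein. The labels do not give the promoter that drives the fusion or the stock that carries it. Eggs had been placed at about 50 per well in 5 mL right after spawning, so each library pools embryos. The labels do not say whether replicates came from separate clutches, so the p-values measure the spread between these libraries, which may be technical.

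Libraries held 1142051 to 1904063 counts. Of 63 marker genes of 7 embryonic tissues and cell types, 49 had a count in all 12 libraries, and 5 had none in any. The table has 0 rows named for mCherry, so the fusion itself could not be checked. The endogenous h2az2b (ENSDARG00000116491), which encodes an H2A.Z, stood at 394 ± 34.2 CPM (counts scaled to a common library total) in wild type with DMSO and at 473 ± 32.1 CPM in H2A.Z-mCherry with DMSO (SD, n = 3 each). That difference did not pass the test (log2 fold change 0.27 ± 0.09 SE, adjusted p = 0.0746 by the edgeR quasi-likelihood test), and it is not given whether reads of the fusion count towards this gene. Another H2A.Z gene, H2AZ2 (ENSDARG00000068820), was at 44.9 ± 5.85 CPM in wild type and 41.7 ± 9.77 CPM in H2A.Z-mCherry with DMSO. Its log2 fold change was -0.08 ± 0.21 (adjusted p = 0.906, edgeR).

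Levels are given in CPM scaled by trimmed mean of M values (TMM). Transcript lengths were not used, so an order of counts between genes is not an order of transcript numbers. Summed over the 12 libraries, tet3 had 6764 counts, tet2 had 1105 and tet1 had 50. Among the readers, mbd3a had 964 counts, mbd2 had 100, mbd3b had 20 and zbtb33 had 0. By total count tet3 ranked 337 among all genes and tet2 ranked 3110. The level test was run on the 12293 genes that passed a filter on low counts, which 4 of the 7 members passed (tet2, tet3, mbd2 and mbd3a). A gene was called where the Benjamini-Hochberg adjusted p over all tested genes was under 0.05.

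**Figure D1:**
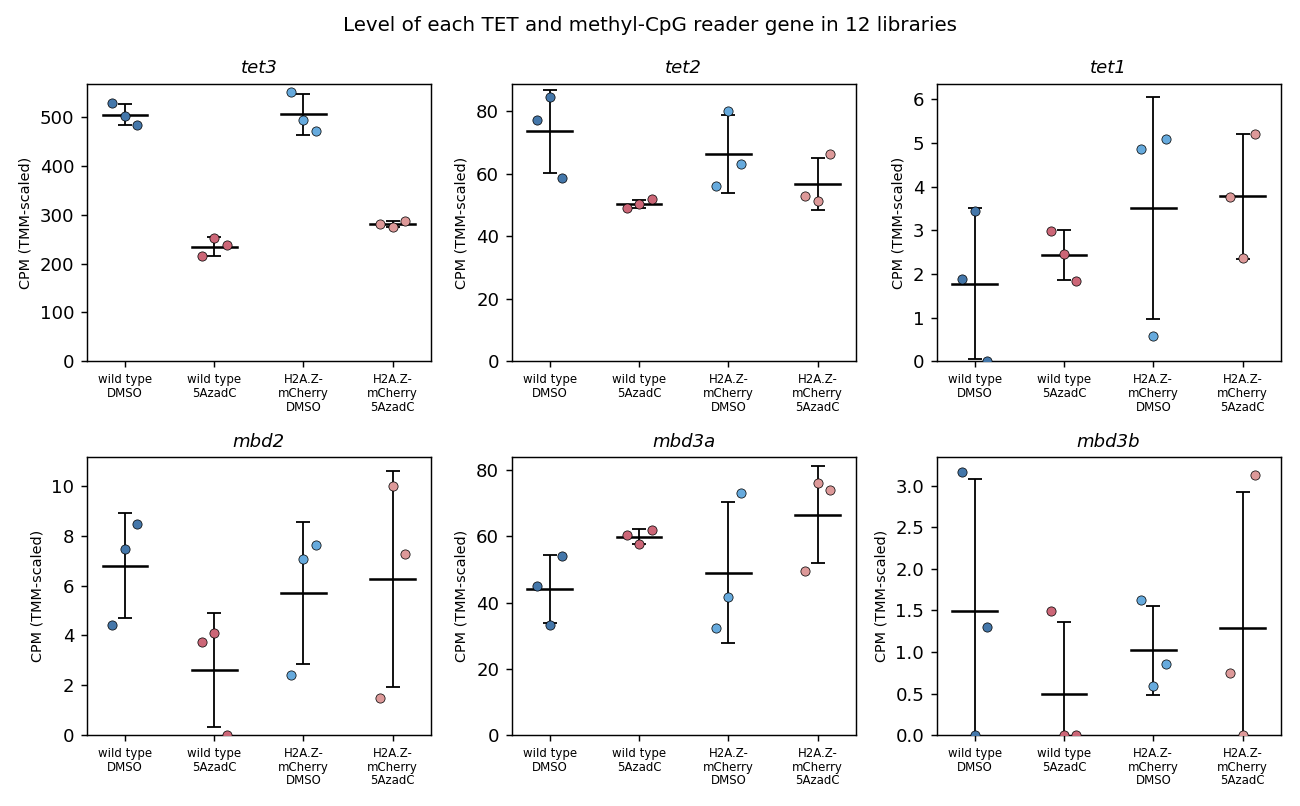
TMM-scaled CPM (linear axis from 0) of the 6 members with counts, in each of the 12 libraries. Points are libraries, horizontal lines are group means and bars are ± SD (n = 3). The 6 tet3 points with 5AzadC lie between 215 and 286 CPM, below the 6 points with DMSO at 471 to 551 CPM, while tet1 and mbd3b stay within a few CPM.

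The main zebrafish TET transcript in these libraries by count was tet3 (ENSDARG00000062646). In wild type with DMSO its level was 527, 501 and 484 CPM in the 3 libraries, and with 5AzadC it was 215, 252 and 237 CPM. In H2A.Z-mCherry it was 551, 493 and 471 CPM with DMSO and 281, 275 and 286 CPM with 5AzadC. Every library with the drug thus lay below every library without it, in both genotypes. The share of all tested genes whose groups also did not overlap was not counted. Here and below, a lack of overlap is therefore given as a description only. The group means were 504 ± 21.8 CPM and 235 ± 18.5 CPM in wild type, and 505 ± 41.4 CPM and 281 ± 5.61 CPM in H2A.Z-mCherry (SD, n = 3). The fall in wild type was 1.10 ± 0.10 (SE) on the log2 scale, which makes the 5AzadC level 2.15-fold lower (adjusted p = 1.51e-15, edgeR). It was the gene ranked 65 of 12293 by p. In H2A.Z-mCherry the log2 fold change was -0.85 ± 0.10 (1.80-fold lower, adjusted p = 5.33e-11, edgeR), and tet3 ranked 61. Both calls held under all 19 alternatives of the processing run for each, with log2 fold changes from -1.15 to -1.03 in wild type and from -0.90 to -0.78 in H2A.Z-mCherry. In bulk RNA of whole embryos, fewer cells of a type and less RNA per cell cannot be told apart.

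In the authors' deposited table tet3 has a log2 fold change of -1.10 ± 0.10 in wild type (adjusted p = 2.40e-26). The authors' deposited table for H2A.Z-mCherry gives -0.85 ± 0.10 (adjusted p = 7.06e-17).

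The second TET gene, tet2 (ENSDARG00000076928), was read at 77.2, 84.5 and 58.6 CPM in wild type with DMSO and at 49.1, 50.2 and 51.7 CPM with 5AzadC. In H2A.Z-mCherry it was at 55.9, 79.9 and 62.9 CPM with DMSO and at 52.7, 51.3 and 66.1 CPM with 5AzadC. The wild-type groups did not overlap, while the H2A.Z-mCherry groups did. In wild type tet2 fell by 0.55 ± 0.20 on the log2 scale (1.46-fold lower, adjusted p = 0.0375, edgeR). That call was lost with DESeq2 (adjusted p = 0.0893), without the filter on low counts (0.0647), and without wild-type DMSO replicate 1 (0.109) or 2 (0.200) or wild-type 5AzadC replicate 1 (0.108), 2 (0.0862) or 3 (0.0746). The authors' deposited table has tet2 at -0.55 ± 0.23 with an adjusted p of 0.0893. This is the value of the DESeq2 run above and not separate evidence. In H2A.Z-mCherry the log2 fold change was -0.23 ± 0.20 (adjusted p = 0.466, edgeR).

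The third, tet1 (ENSDARG00000075230), is the paralog best known from mammalian embryonic stem cells and primordial germ cells. It had 3, 6 and 0 counts in wild type with DMSO, 4, 3 and 2 with 5AzadC, 6, 1 and 6 in H2A.Z-mCherry with DMSO, and 5, 4 and 10 with 5AzadC. No group stood clear of the others, and tet1 did not pass the filter. Its summed level with 5AzadC relative to DMSO was 1.33-fold in wild type, with a 95% exact binomial interval of 0.469 to 3.79, and 1.21-fold in H2A.Z-mCherry (0.569 to 2.68). These intervals cover counting error only, and a difference within them was not detectable at this depth.

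Of the 4 tested members, 2 were called in wild type with 5AzadC, both lower, where 22.3% of all tested genes were called (11.7% lower and 10.7% higher). In H2A.Z-mCherry 1 of 4 was called, also lower, where 17.9% of all tested genes were called (9.03% lower and 8.84% higher). The median log2 fold change of all tested genes was 0.01 in wild type and 0.02 in H2A.Z-mCherry.

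Among the readers, mbd3a was read at 44.9, 33.4 and 54.1 CPM in wild type with DMSO and at 60.3, 57.6 and 61.9 CPM with 5AzadC. In H2A.Z-mCherry it was at 32.4, 41.7 and 73.1 CPM with DMSO and at 49.7, 76.0 and 73.9 CPM with 5AzadC. The wild-type groups did not overlap and the H2A.Z-mCherry groups did, with DMSO replicate 3 among the 5AzadC values. As above, the lack of overlap is a description, since its share over all tested genes was not counted. The log2 fold change was 0.45 ± 0.23 in wild type (adjusted p = 0.163) and 0.46 ± 0.22 in H2A.Z-mCherry (adjusted p = 0.144), both short of the threshold by edgeR. Without H2A.Z-mCherry DMSO replicate 3 the second was 0.83 and was called (adjusted p = 0.0139, edgeR). The authors' deposited tables give mbd3a log2 fold changes of 0.45 in both genotypes, with adjusted p-values of 0.327 and 0.307.

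The NuRD subunit gene mbd2 (ENSDARG00000075952), whose protein binds methylated CpG, had 7, 13 and 13 counts in wild type with DMSO and 5, 5 and 0 with 5AzadC. In H2A.Z-mCherry it had 3, 12 and 9 counts with DMSO and 2, 17 and 14 with 5AzadC. All 3 wild-type libraries with 5AzadC were below all 3 with DMSO, and in H2A.Z-mCherry the groups overlapped. The log2 fold change was -1.30 ± 0.75 in wild type (adjusted p = 0.228) and 0.16 ± 0.66 in H2A.Z-mCherry (adjusted p = 0.906, edgeR). By counting error alone, the 10 counts with 5AzadC against 33 with DMSO in wild type gave a ratio of CPM of 0.404 (95% interval 0.178 to 0.839), an interval that leaves out the spread between libraries. In H2A.Z-mCherry 33 counts against 24 gave a ratio of 1.14 (0.655 to 2.02).

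The paralog mbd3b (ENSDARG00000061810) had a count in 8 of 12 libraries. It had 5, 0 and 2 counts in wild type with DMSO, 2, 0 and 0 with 5AzadC, 2, 1 and 1 in H2A.Z-mCherry with DMSO, and 1, 0 and 6 with 5AzadC. The groups overlapped, and the interval of its 5AzadC to DMSO ratio had bounds of 0.0386 and 2.0 in wild type and from 0.370 to 6.78 in H2A.Z-mCherry. For zbtb33 (ENSDARG00000071467), 0 counts in 12 libraries allow a mean level of up to 0.171 CPM at 3 counts over all libraries. The limit is 0.606 to 0.824 CPM within a group, again for counting error only. In all, 7468 genes of the table had no count, and these included idh1 and pnkp, genes of general metabolism and DNA repair, so a listed 0 is given here as a value of this table.

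H2A.Z-mCherry was compared with wild type under each treatment, and the drug responses of the 2 genotypes were compared by an interaction term. With DMSO 0 of 4 tested members were called by edgeR, 0 had an unadjusted p under 0.05, and DESeq2 called 0, where 5.32% of all tested genes were called. The tet3 means of 504 and 505 CPM gave a log2 fold change of 0.00 ± 0.09 (adjusted p = 0.993, edgeR). For the other 3 tested members the log2 fold change lay between -0.23 (mbd2) and 0.14 (mbd3a).

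With 5AzadC 0 of 4 members were called by edgeR, 1 had an unadjusted p under 0.05 and DESeq2 called 0, where 15.6% of all tested genes were called. That member was tet3, at 281 CPM against 235 CPM, with no overlap between the 3 H2A.Z-mCherry and the 3 wild-type libraries (log2 fold change 0.26 ± 0.10, adjusted p = 0.0641, edgeR). Upper quartile scaling (0.28, adjusted p = 0.0486) and leaving out wild-type 5AzadC replicate 2 (0.31, adjusted p = 0.0467) took it past the threshold by edgeR. For mbd2 the log2 fold change was 1.23 ± 0.75 (adjusted p = 0.287, edgeR), with 33 counts against 10.

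The interaction, which is the response in H2A.Z-mCherry minus that in wild type, called 0 of 4 members by edgeR, with 0 at an unadjusted p under 0.05 and 0 by DESeq2, where 3.75% of all tested genes were called. Its log2 values were 0.26 ± 0.14 for tet3 (adjusted p = 0.344), 0.32 ± 0.28 for tet2 (0.637), 0.02 ± 0.32 for mbd3a (0.986) and 1.46 ± 0.999 for mbd2 (0.511, edgeR). The smaller tet3 response in H2A.Z-mCherry and the tet2 call in wild type alone were therefore not shown to differ between genotypes.

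**Figure D2:**
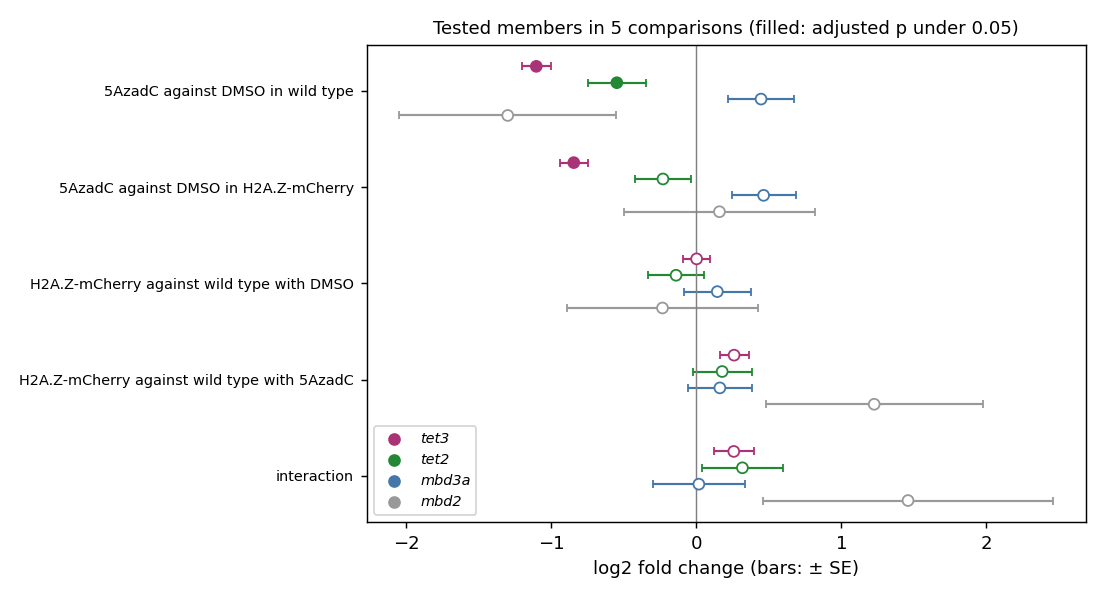
Log2 fold change of the 4 tested members in 5 comparisons, with bars of ± SE from the edgeR fit of 12 libraries. Filled points are called at an adjusted p under 0.05. The 3 filled points are tet3 under 5AzadC in both genotypes (-1.10 and -0.85) and tet2 in wild type (-0.55).

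The mean 5AzadC response over the 2 genotypes was also fitted, a comparison chosen after the values above had been seen. It called 3 of 4 tested members, where 29.8% of all tested genes were called. Its log2 values were -0.97 ± 0.07 for tet3 (adjusted p = 9.29e-21), -0.39 ± 0.14 for tet2 (0.0266), 0.46 ± 0.16 for mbd3a (0.0219) and -0.57 ± 0.50 for mbd2 (0.423, edgeR). DESeq2 called tet3 alone of these. For tet2 the call was also lost without the filter on low counts (adjusted p = 0.0511), wild-type DMSO replicate 1 (0.0572) or 2 (0.0949), wild-type 5AzadC replicate 1 (0.0516), H2A.Z-mCherry DMSO replicate 2 (0.136), or H2A.Z-mCherry 5AzadC replicate 1 (0.0603) or 2 (0.0741, edgeR). For mbd3a it was lost without wild-type DMSO replicate 2 (adjusted p = 0.0912, edgeR), and H2A.Z-mCherry DMSO replicate 1 (0.0951) or 2 (0.0685), or 5AzadC replicate 2 (0.0691) or 3 (0.0616).

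Ratios between paralogs within a library use no library scaling, and 4 such ratios were tested for each of the 2 factors, giving 8 tests. With 0.5 added to each count, a ratio with tet1 or mbd3b, which have few counts, still depends on library depth. The tet3 to tet2 ratio, log2 of counts plus 0.5, was 2.77, 2.56 and 3.04 in wild type with DMSO and 2.12, 2.32 and 2.19 with 5AzadC. In H2A.Z-mCherry it was 3.29, 2.62 and 2.90 with DMSO and 2.41, 2.42 and 2.11 with 5AzadC. Every 5AzadC library was below every DMSO library in both genotypes. The mean difference of -0.60 makes the ratio 1.52-fold lower with the drug (-0.58 in wild type and -0.62 in H2A.Z-mCherry). Its two-sided exact permutation p over 400 arrangements within genotype was 0.005, the smallest they can give, or 0.04 after Benjamini-Hochberg adjustment over the 8 tests. The tet3 counts thus fell relative to the tet2 counts. The adjusted p of the exact permutation test was 0.08 without wild-type 5AzadC replicate 1 or without H2A.Z-mCherry 5AzadC replicate 1, 2 or 3. Leaving out a library leaves 200 arrangements, whose smallest two-sided p is 0.005 or 0.01. A p of 0.01 can become 0.08 after adjustment over 8 tests, so these losses do not tell a weaker difference from fewer arrangements.

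The tet3 to tet1 ratio differed by -1.68 on the log2 scale (exact permutation p = 0.01, adjusted p = 0.04), but it rests on the few tet1 counts. Its highest value, 10.5 in wild type with DMSO, is from the library without a tet1 count. With a pseudocount of 0.1 in place of 0.5 the adjusted p of the exact permutation test was 0.08, and without that library, wild-type DMSO replicate 3, the difference was -1.18 (0.06). The threshold was also missed without wild-type 5AzadC replicate 1, 2 or 3 (0.22, 0.20 and 0.16), H2A.Z-mCherry DMSO replicate 2 (0.10) or H2A.Z-mCherry 5AzadC replicate 1, 2 or 3 (0.18, 0.08 and 0.18), so 8 of 12 such exact permutation tests did not keep the call. Neither tet1 to tet2 (1.08, adjusted p = 0.41) nor mbd3a to mbd3b (1.02, adjusted p = 0.41) passed the exact permutation test for treatment, and none of the 4 ratios did so for genotype (adjusted p from 0.44 to 0.76).

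**Figure D3:**
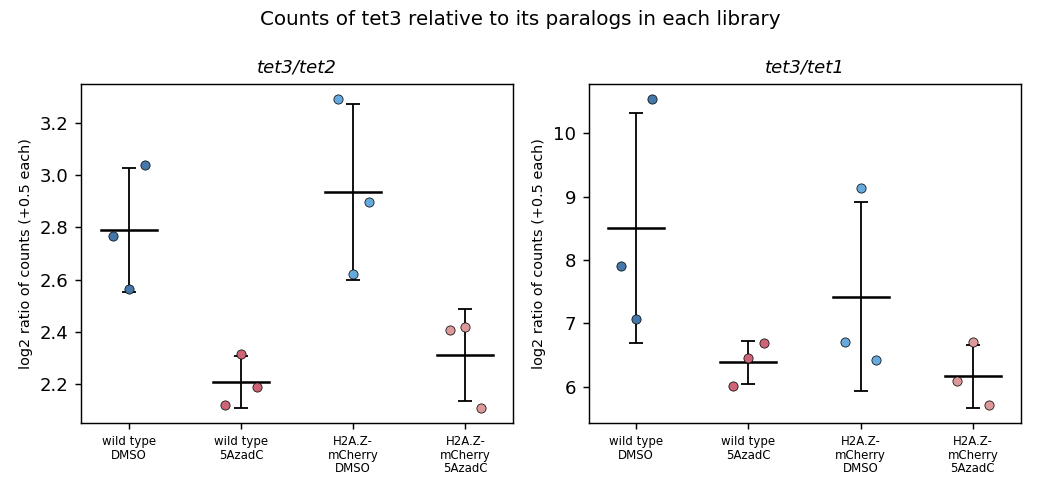
Log2 ratio of counts (each plus 0.5) of tet3 to tet2 and of tet3 to tet1 in each library. Points are libraries, lines are group means and bars are ± SD (n = 3), and the vertical axes do not start at 0. The tet3 to tet2 ratio lies at 2.56 to 3.29 in the DMSO libraries and at 2.11 to 2.42 in the 5AzadC libraries.

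As a share of all TET counts, tet3 made up 85.1 to 89.2% in wild type with DMSO and 80.5 to 82.7% with 5AzadC, and 86.0 to 90.1% and 80.1 to 83.7% in H2A.Z-mCherry. Among the counts of mbd2, mbd3a and mbd3b, mbd3a made up 81.7 to 85.5% and 92.0 to 100% in wild type, and 84.5 to 89.6% and 87.7 to 95.7% in H2A.Z-mCherry. The leading paralog of each family thus had the larger part of the counts in every library.

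The genes whose level ran most like that of tet3 over the 12 libraries were FAT3 (Pearson r = 0.990 on log2 CPM), an atypical cadherin gene, LRP2 (0.986), which encodes the endocytic receptor megalin, and nr2f5 (0.984), which encodes an orphan nuclear receptor. Their log2 fold changes with 5AzadC were -2.55, -2.49 and -0.64 in wild type and -2.10, -1.85 and -0.44 in H2A.Z-mCherry. With the group means removed, r was 0.533, 0.427 and 0.825. For tet2 the closest were HOXA11 (0.892), a homeobox gene, NAT16 (0.882) and ADAM12 (0.861), a metalloprotease gene, with 0.837, 0.760 and 0.674 once group means were removed. Their mean levels were 7.02, 72.3 and 4.01 CPM, so HOXA11 and ADAM12 had few counts. Their log2 fold changes with 5AzadC were -1.62, -1.28 and -3.36 in wild type and -0.25, -0.59 and -1.06 in H2A.Z-mCherry. The correlations are descriptions over 12 libraries that share treatment groups, with no p.

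Other genes of DNA methylation were read beside the members from 4 lists. Their counts of calls stand beside the shares of all tested genes called by edgeR. These shares were 22.3% in wild type and 17.9% in H2A.Z-mCherry with 5AzadC. Between genotypes they were 5.32% with DMSO and 15.6% with 5AzadC. In the list of DNA methyltransferases and UHRF1, all 8 genes were tested, of which 6 fell with 5AzadC in wild type and 0 rose (median log2 fold change -0.89), and 1 fell in H2A.Z-mCherry (median -0.00). DNMT1, the maintenance methyltransferase, fell in wild type (log2 fold change -0.86 ± 0.12, adjusted p = 5.48e-09) and in H2A.Z-mCherry (-0.59 ± 0.11, adjusted p = 5.23e-05, edgeR). UHRF1, which brings DNMT1 to newly replicated DNA, fell in wild type (-1.05 ± 0.12, adjusted p = 3.47e-11, edgeR), at 248, 289 and 263 CPM with DMSO and 119, 142 and 126 CPM with 5AzadC. In H2A.Z-mCherry UHRF1 was at 218, 213 and 178 CPM with DMSO and at 208, 192 and 213 CPM with 5AzadC. The wild-type groups were far apart and the H2A.Z-mCherry groups overlapped. The de novo methyltransferase genes dnmt3ba (-0.40 ± 0.09), dnmt3bb.3 (-0.91 ± 0.23) and DNMT3A (ENSDARG00000005394, -1.75 ± 0.43) also fell in wild type (adjusted p = 6.48e-04, 0.00188 and 0.00142, edgeR). The dnmt3bb.3 call was lost without wild-type DMSO replicate 1 (adjusted p = 0.0917, edgeR). This DNMT3A gene had 98 counts in wild type with DMSO and 22 with 5AzadC. The other DNMT3A gene (ENSDARG00000015566) had 155 and 92. Its groups overlapped, at 42.4, 23.0 and 31.3 CPM with DMSO and 17.1, 31.3 and 28.6 CPM with 5AzadC.

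Between genotypes with 5AzadC 4 of these 8 were higher in H2A.Z-mCherry, where 15.6% of all tested genes were called. These were UHRF1 (0.66 ± 0.12), dnmt3ba (0.47 ± 0.09), dnmt3bb.2 (0.50 ± 0.10) and DNMT3B (1.69 ± 0.47), with edgeR adjusted p-values of 2.80e-05, 1.16e-04, 2.29e-04 and 0.00683. DNMT3B had few counts, 19 in wild type and 83 in H2A.Z-mCherry with 5AzadC. Its call was lost without wild-type 5AzadC replicate 1 (adjusted p = 0.0833, edgeR). With DMSO UHRF1 alone was called, lower in H2A.Z-mCherry (-0.39 ± 0.11, adjusted p = 0.0242, edgeR), a call that was lost with DESeq2 (0.0545) and without wild-type DMSO replicate 2 (0.177) or 3 (0.0663) or H2A.Z-mCherry DMSO replicate 3 (0.215).

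Of 8 matched genes in the list of other methyl-CpG readers 5 were tested. These 5 are in the list as MBD family genes, and binding of methylated CpG by their proteins was not tested. Calls of mbd6 and MBD5 are therefore not read as calls of methyl-CpG readers. None was called with 5AzadC in wild type (edgeR 0, DESeq2 0, and 0 at an unadjusted p under 0.05, median log2 fold change -0.09). In H2A.Z-mCherry mbd6, a member of the MBD family, fell (-0.40 ± 0.14, adjusted p = 0.0313, edgeR; median of the 5 genes -0.38). That call was lost without the filter on low counts and without H2A.Z-mCherry DMSO replicate 1 or 3 or 5AzadC replicate 2 or 3 (adjusted p from 0.0714 to 0.142, edgeR). With 5AzadC 3 of the 5 were lower in H2A.Z-mCherry than in wild type, where 15.6% of all tested genes were called. These were MBD5 (-0.88 ± 0.18, adjusted p = 1.27e-04), mbd6 (-0.42 ± 0.14, 0.0270) and mbd4, which encodes a mismatch glycosylase (-1.14 ± 0.39, 0.0337, edgeR), and 1 of the 5 was called with DESeq2, without the filter, without wild-type 5AzadC replicate 2, and without H2A.Z-mCherry 5AzadC replicate 2 or 3. Each setting lost mbd4 and mbd6, as did leaving out 5AzadC replicate 1 of H2A.Z-mCherry for mbd4 (adjusted p = 0.128) and of wild type for mbd6 (0.124, edgeR).

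Partners of Mbd2 and Mbd3 in NuRD numbered 13, of which 11 were tested. In wild type 2 rose and 1 fell with 5AzadC (median log2 fold change -0.03), and in H2A.Z-mCherry 3 rose and 0 fell (median 0.35). Of all tested genes 22.3% and 17.9% were called. The 3 of 11 in each genotype lie near those shares and are not read as a result about the list. HDAC1, its deacetylase, was at 403, 362 and 414 CPM with DMSO and 503, 544 and 494 CPM with 5AzadC in wild type, and at 395, 431 and 454 CPM and 608, 628 and 617 CPM in H2A.Z-mCherry. All libraries with the drug were above all without it. HDAC1 rose in wild type (log2 fold change 0.39 ± 0.09, adjusted p = 6.64e-04) and in H2A.Z-mCherry (0.53 ± 0.09, adjusted p = 3.82e-06, edgeR), calls that held in all 19 alternatives of each. CDK2AP2, a small NuRD subunit, rose in both (0.70 ± 0.25 and 0.81 ± 0.25, adjusted p = 0.0300 and 0.0158, edgeR), MTA1, a scaffold subunit, fell in wild type (-0.57 ± 0.17, adjusted p = 0.0107, edgeR), and GATAD2A, another subunit, rose in H2A.Z-mCherry (0.38 ± 0.12, adjusted p = 0.0241, edgeR). In wild type the CDK2AP2 call was lost without DMSO replicate 1 or 2, without 5AzadC replicate 1 or 2, without the filter and with DESeq2 (adjusted p from 0.0563 to 0.127), and the MTA1 call without DMSO replicate 3 (0.0690) or 5AzadC replicate 2 (0.110). Without that 5AzadC replicate 1 call was left in the list. In H2A.Z-mCherry the list was left with 1 call without DMSO replicate 3. There CDK2AP2 was lost without DMSO replicate 3 or 5AzadC replicate 2 (0.0855 and 0.0883), and GATAD2A with DESeq2 and without DMSO replicate 2 or 3 or 5AzadC replicate 1 or 3 (0.0591 to 0.193). With 5AzadC RBBP4, a histone-binding subunit (0.47 ± 0.12, adjusted p = 0.00373), and HDAC1 (0.27 ± 0.09, 0.0298, edgeR) were higher in H2A.Z-mCherry, and the second of these was lost without any of 5 of the 6 libraries compared (all but wild-type 5AzadC replicate 2, adjusted p from 0.0580 to 0.130).

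Genes of demethylation and base excision numbered 22, of which 17 were tested. In wild type 3 fell with 5AzadC and 0 rose (median log2 fold change -0.14), and in H2A.Z-mCherry 2 rose and 3 fell (median 0.15). The 3 of 17 called in wild type lie near the 22.3% of all tested genes called there. The 5 of 17 in H2A.Z-mCherry stand beside 17.9%. NEIL1, a glycosylase of oxidised bases, fell in wild type (-4.25 ± 1.14, adjusted p = 0.00328, edgeR), with 33 counts with DMSO and 1 with 5AzadC. In H2A.Z-mCherry it had 20 and 24 counts. The interaction term did not call NEIL1, so its drug response was not shown to differ between genotypes. UNG (ENSDARG00000042527), a uracil glycosylase, fell in wild type (-1.48 ± 0.49, adjusted p = 0.0208, edgeR). OGT, the O-GlcNAc transferase that binds TET proteins in mammals, fell in both genotypes for the gene ENSDARG00000105243 (-0.27 ± 0.10 and -0.78 ± 0.10, adjusted p = 0.0307 and 1.39e-09, edgeR). In H2A.Z-mCherry the other OGT gene (ENSDARG00000099455, -0.41 ± 0.12) and cxxc5b (-0.61 ± 0.19), which encodes a CXXC zinc finger protein, fell. LIG3, a DNA ligase (0.44 ± 0.12), and TDG, the glycosylase that removes TET products (ENSDARG00000013004, 0.43 ± 0.14), rose there (adjusted p = 0.00975, 0.0176, 0.00739 and 0.0204 for these 4, edgeR). The other TDG gene (ENSDARG00000086450) was not called in H2A.Z-mCherry. Its groups overlapped there, at 38.1, 47.0 and 47.6 CPM with DMSO and 53.4, 43.0 and 53.1 CPM with 5AzadC. In wild type the count of 3 was 1 without DMSO replicate 1 or 3 or 5AzadC replicate 1. UNG was lost with DESeq2 and without DMSO replicate 3 or 5AzadC replicate 1 or 3 (adjusted p from 0.0531 to 0.171), and OGT without the filter and without DMSO replicate 1 or 3 or 5AzadC replicate 1 or 2 (0.0725 to 0.145). In H2A.Z-mCherry the count of 5 was 2 without DMSO replicate 1 and 3 without 5AzadC replicate 2 or 3. There cxxc5b was lost without DMSO replicate 1 or 3 or 5AzadC replicate 1 or 3 (adjusted p from 0.0737 to 0.109), and TDG without DMSO replicate 1 or 5AzadC replicate 2 or 3 (0.0765 to 0.0966). The OGT gene ENSDARG00000099455 was lost without DMSO replicate 2 or 5AzadC replicate 2 (0.0903 and 0.0829), and LIG3 without DMSO replicate 1 (0.146, edgeR). The larger OGT fall held in all 19 alternatives. The NEIL1 fall held in the 15 alternatives that gave a value for it, and the others gave none.

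Between genotypes with 5AzadC 8 of the 17 were called, 5 higher and 3 lower in H2A.Z-mCherry, where 15.6% of all tested genes were called. The 5 with the smallest p were cxxc5b (-0.78 ± 0.19), IDH2, which makes the 2-oxoglutarate that TET enzymes use (0.58 ± 0.16), OGT (ENSDARG00000105243, -0.35 ± 0.10), APEX1, an abasic site nuclease (0.35 ± 0.10), and PARP1, a sensor of DNA breaks (0.36 ± 0.11), with edgeR adjusted p-values of 0.00203, 0.00667, 0.00869, 0.0138 and 0.0164. The count was 1 without wild-type 5AzadC replicate 3, 5 without replicate 1, and 2 and 4 without H2A.Z-mCherry 5AzadC replicates 2 and 3. Of these 5 genes, cxxc5b kept its call in all 19 alternatives. Leaving out wild-type 5AzadC replicate 3 lost the other 4 (IDH2 0.0501, OGT 0.0665, APEX1 0.119 and PARP1 0.0971). IDH2 was also lost without H2A.Z-mCherry 5AzadC replicate 3 (0.0921), OGT and APEX1 without its replicate 2 (0.0886 each), and PARP1 without its replicate 1 or 2 (0.0536 and 0.0586) or wild-type 5AzadC replicate 1 (0.0989). With DMSO IDH2 alone was called (0.52 ± 0.16, adjusted p = 0.0429, edgeR), a call lost with DESeq2 and without wild-type replicate 1 or 3 or H2A.Z-mCherry replicate 2 or 3 (adjusted p from 0.0837 to 0.248).

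**Figure D4:**
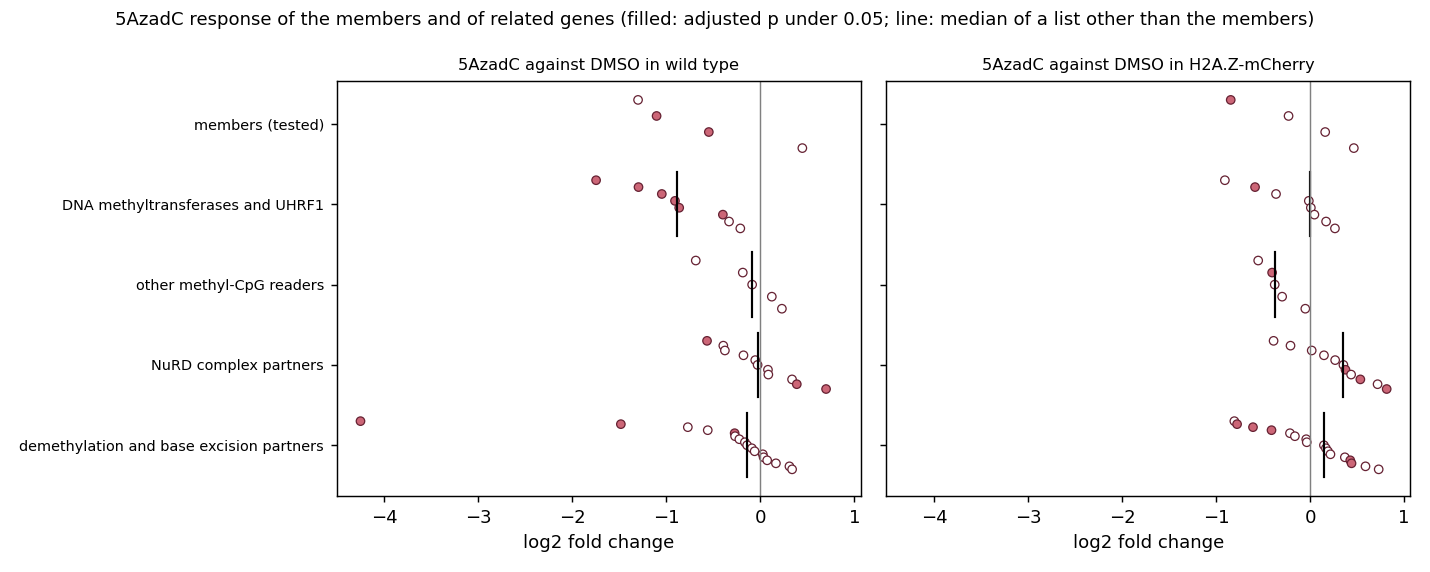
Log2 fold change with 5AzadC of the 4 tested members and of 4 lists of related genes, in wild type (left) and H2A.Z-mCherry (right), on one horizontal scale. Each point is a gene, filled where called, and vertical lines are list medians. The methyltransferase list has its median at -0.89 in wild type and at -0.00 in H2A.Z-mCherry, and tet3 lies left of 0 in both.

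Called neural plate and somite and muscle markers were mostly lower with 5AzadC in both genotypes, as tet3 was. Called epidermis and periderm markers were higher, and those of the other 4 of the 7 embryonic tissues and cell types had few calls. Of all tested genes 22.3% were called with 5AzadC in wild type and 17.9% in H2A.Z-mCherry. With 5AzadC in wild type 1 of 6 tested notochord genes fell, 1 of 5 blood and endothelium genes rose, and 0 of 2 endoderm and 0 of 2 germline genes were called by edgeR or DESeq2 or had an unadjusted p under 0.05. In H2A.Z-mCherry 0 of these 15 were called by edgeR or DESeq2, and 1, a notochord gene, had an unadjusted p under 0.05. Of 14 tested neural plate genes, 11 fell with 5AzadC in wild type and 0 rose, and 5 fell and 1 rose in H2A.Z-mCherry. Their summed level was 1052 to 1179 CPM and 558 to 704 CPM in wild type with DMSO and with 5AzadC, and 1110 to 1170 CPM and 930 to 995 CPM in H2A.Z-mCherry. Of 12 somite and muscle genes, 5 fell and 1 rose in wild type and 4 fell and 1 rose in H2A.Z-mCherry, with summed levels of 5806 to 6718 CPM and 2822 to 2907 CPM, and of 5502 to 5940 CPM and 3079 to 3936 CPM.

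Of 8 epidermis and periderm genes, 5 rose in wild type and 3 in H2A.Z-mCherry, and 0 fell in either. Their summed level was 4503 to 5152 CPM and 7753 to 9442 CPM in wild type, and 2890 to 3584 CPM and 3386 to 4223 CPM in H2A.Z-mCherry. Sums of these marker lists follow their most counted genes and also hold matched genes that were not tested. With DMSO the epidermis and periderm sum was lower in H2A.Z-mCherry. Yet 3 of the 8 tested genes were called higher there and 1 lower, where 5.32% of all tested genes were called. All 9 tested p53 target genes rose in both genotypes, with summed levels of 141 to 258 CPM and 1734 to 1817 CPM in wild type and of 146 to 197 CPM and 838 to 1007 CPM in H2A.Z-mCherry. Among 14 tested genes of the cell cycle and DNA replication, 10 were lower with 5AzadC and 1 higher in wild type, from 4263 to 4355 CPM to 2886 to 3225 CPM in sum, and 3 were lower and 1 higher in H2A.Z-mCherry, at 3926 to 4131 CPM and 3507 to 3771 CPM. The part of these tissues, of the p53 response and of replication in the levels of tet3, tet2 and their partners was not tested.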

How the data were processed

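Total RNA libraries of whole zebrafish embryos formed 4 groups of 3. The authors deposited raw read counts per Ensembl gene, replicates apart. The submitters' processing notes name STAR, Subread, featureCounts 2.0.3, DESeq2 1.22.2, deepTools and build GRCz11, with no role or order. The sources used here do not give the annotation release, the strand setting or the treatment of multiply mapping reads, so reads shared by paralogs or overlapping genes are uncertain. The authors also deposited 5AzadC comparisons that hold, per the file headers, a mean normalised signal, log2 fold changes, their standard errors, a test score and p-values. For tet3, tet2 and mbd3a these log2 fold changes equal those of the DESeq2 run made here, so they are not separate evidence.

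From the counts, edgeR 4.0.16 (R 4.3.3) gave quasi-likelihood tests in 1 fit of all 12 libraries with 1 coefficient per group, after filterByExpr (minimum count 10, minimum total 15) and TMM scaling. The SE given with edgeR values is the size of the log2 fold change divided by the square root of its F statistic. It is thus derived from the test. The 12293 tested genes held 98.5% of counts, and the common biological coefficient of variation was 14.8%. Ratios were tested by exact permutation within the other factor. Scripts were tested on simulated data. Alternatives were RLE and upper quartile scaling, removal of rn7sl1 reads (6.57 to 10.1% of counts), no filter, DESeq2 1.42.0, a fit of only the groups compared, a replicate block, other pseudocounts, and leaving out each library. A library outside the groups compared enters only through the shared filter, scaling, spread and adjustment. Leaving it out is therefore a weaker check. No pair of libraries within a group agreed within sampling noise (chi-square per degree of freedom 2.34 to 2.98).

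Members and lists were chosen with earlier results of these data known. All members are named. From other lists, called genes are named, up to 5 per list and comparison by adjusted p, and for called members the 3 genes with the highest Pearson r (prior count 2). Symbols were matched by name, then without the paralog suffix, as for mbd3a, and then by synonyms of a RefSeq gene table, as for mbd1a. The genes uhrf2 and mylpfa, the second a muscle gene, had no match.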

Additional observations from a re-analysis of the deposited data

Results flagged for a closer look

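The 5AzadC response differed between the genotypes for 4 genes of the related lists, where 3.75% of all tested genes were called. They were 2 of 8 tested genes of DNA methyltransferases and UHRF1 and 2 of 17 of demethylation and base excision. Other readers had 0 of 5 and NuRD partners 0 of 11. Marker lists had such calls too, in 6 of 14 replication and cell cycle genes, 5 of 12 of somite and muscle and 4 of 9 p53 targets. So did 4 of 8 epidermis and periderm, 3 of 14 neural plate and 1 of 5 blood and endothelium genes. Notochord, endoderm and germline had 0. The test was the edgeR interaction term with Benjamini-Hochberg adjustment over all tested genes. None of the 4 TET and methyl-CpG reader genes tested was called (tet1, mbd3b and zbtb33 were not tested). On the log2 scale, the response in H2A.Z-mCherry minus that in wild type was 1.06 ± 0.17 (SE) for UHRF1 (adjusted p = 8.03e-06). UHRF1 fell in wild type and had overlapping groups in H2A.Z-mCherry. With DMSO UHRF1 was already lower in H2A.Z-mCherry (-0.39 ± 0.11, adjusted p = 0.0242, edgeR), a call that several settings lost. That DMSO difference enters the interaction. For dnmt3ba the interaction was 0.57 ± 0.13 (adjusted p = 0.00409, edgeR). In wild type dnmt3ba was at 518, 530 and 531 CPM with DMSO and 382, 403 and 414 CPM with 5AzadC. In H2A.Z-mCherry dnmt3ba was at 419, 544 and 510 CPM and at 571, 578 and 511 CPM. The interaction calls of UHRF1 and dnmt3ba held in all 18 alternatives.

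For the OGT gene ENSDARG00000105243 the difference was -0.50 ± 0.14 (adjusted p = 0.0193, edgeR), a larger fall in H2A.Z-mCherry, and the call held in 14 of 18 alternatives. It was lost without wild-type DMSO replicate 2 (adjusted p = 0.0608, edgeR) or 5AzadC replicate 3 (0.0702), or without H2A.Z-mCherry DMSO replicate 2 (0.0537) or 5AzadC replicate 2 (0.0814). For UNG (ENSDARG00000042527) it was 2.21 ± 0.68 (adjusted p = 0.0486, edgeR), with 71 and 19 counts in wild type and 29 and 58 in H2A.Z-mCherry with DMSO and with 5AzadC. That call held in 4 of 17 alternatives (adjusted p over the 17 from 0.0322 to 0.181, edgeR). Among those that left out a library it held only without wild-type DMSO replicate 1 or 5AzadC replicate 2. With DMSO UNG was at 10.8, 12.1 and 21.5 CPM in wild type and 7.29, 8.23 and 5.10 CPM in H2A.Z-mCherry. That DMSO difference enters the interaction but was not itself called.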

How the results depend on the processing

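The tet3 fall kept its direction and its call in both genotypes under all 19 alternatives of each. In wild type the count of called members was 2, and it was 1 without the filter on low counts and 1 with DESeq2, since tet2 lost its call. Leaving out a library gave 1 to 2 in wild type and 1 to 2 in H2A.Z-mCherry, against 1 with all libraries. Between genotypes with 5AzadC upper quartile scaling gave 1 called member against 0, and leaving out a library gave 0 to 1. For the mean of both genotypes DESeq2 gave 1 against 3, and leaving out a library gave 1 to 3. For these changes the cause was not tested beyond the fewer samples or other tests named.

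Signs of member log2 fold changes turned only where no call was made. The mbd3a interaction was -0.00143 with DESeq2. Leaving out a library, it ranged from -0.20 to 0.38, mbd2 with 5AzadC in H2A.Z-mCherry from -0.30 to 0.58, and the genotype difference with DMSO from -0.056 to 0.055 for tet3, from -0.46 to 0.12 for mbd2 and from -0.22 to 0.36 for mbd3a. The mbd3a to mbd3b ratio between genotypes ranged from -0.76 to 0.17.

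Leaving out a library leaves 200 arrangements, whose smallest p of 0.005 or 0.01 can be 0.08 after adjustment over 8 tests. The tet3 to tet1 ratio with 5AzadC was -2.08 with a pseudocount of 0.1 (adjusted p = 0.08, exact permutation test). It was -2.04 to -1.18 when a library was left out, with 8 of these 12 adjusted p-values over the threshold. That of tet3 to tet2 was -0.68 to -0.51, with 4 of 12 over it (0.08 each). With a replicate block they were -1.68 and -0.60, each with an adjusted p of 0.125 by exact permutation, but its 64 arrangements allow no p under 0.03125. The numbers were not found to pair libraries: 0 of 18 same-numbered pairs correlated above 0.1 (r from -0.03 to 0.02) and 4 of 12 libraries were most like their own number. The block moved no count of called members. Called genes of the whole table moved by over 1.5 times once, from 2197 to 1389 in H2A.Z-mCherry without 5AzadC replicate 2.

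Depth limits tet1, mbd2 and mbd3b, at 0 to 17 counts per library, for which the intervals of the ratios span several fold, and zbtb33, with 0 counts, has no ratio. Embryos were whole and pooled, and how reads shared by paralogs were counted is not given. Protein and DNA methylation were not measured in these files.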
